A study of Mus musculus with 12 samples.

Results

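The 50 genes described here encode the machinery that makes ribosomes: subunits and factors of RNA polymerase I (Pol I), proteins of the small nucleolar ribonucleoprotein particles (snoRNPs), nucleolar chaperones, and processing factors of both ribosomal subunits. They were taken by symbol from a list of the pathway, and all 50 were among the 23420 genes of the deposited table and among the 13095 genes abundant enough to be tested. Bulk RNA was sequenced from 12 tumors grown under the skin of male C57BL/6J mice from B16-F10 cells, a mouse melanoma line. The tumors form 4 groups of 3: nonobese mice on control diet given isotype antibody, nonobese mice given anti–PD-1 antibody, obese mice on Western diet given isotype, and obese mice given anti–PD-1. Diets began at 4 to 5 weeks of age and lasted 15 weeks, both antibodies were dosed at 10 mg/kg, and day 16 was the day of collection. The labels name no engineered allele, and all tumors came from the same implanted line. The comparisons ask how obesity and PD-1 blockade relate to gene expression in the tumor.

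Ribosome production starts in the nucleolus, where Pol I transcribes the long precursor of ribosomal RNA. Box C/D snoRNPs methylate that precursor, box H/ACA snoRNPs convert chosen uridines to pseudouridine, and a large set of processing factors then cuts, folds and escorts the pre-ribosomal subunits. In tumors this program is costly and closely tied to growth, and the transcription factor MYC is known to bind many of its genes at the E-box CACGTG.

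The E-box is therefore the sequence shown for these promoters, as far as the RefSeq promoter table (GRCm38.p6, 250 bases before to 50 after each start) held them. A promoter was found for 43 of the 50 genes, and 8 of these (18.6%) carried CACGTG, which reads the same on both strands. The same 6 bases occurred in 8.09% of 27025 genes in the table, in 7.15% of all its promoters, and in 11.7% of the 9753 tested genes with a promoter. Each line below gives 1 match in the direction of the gene, with the E-box in capitals.
Nop2, chr6:125131811-125131840, plus strand: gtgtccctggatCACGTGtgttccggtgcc
Rrn3, chr16:13780472-13780501, plus strand: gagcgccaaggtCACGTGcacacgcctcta
Rrn3, chr16:13780639-13780668, plus strand: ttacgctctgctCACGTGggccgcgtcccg
Pes1, chr11:3963965-3963994, plus strand: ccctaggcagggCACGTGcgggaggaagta
Wdr43, chr17:71616220-71616249, plus strand: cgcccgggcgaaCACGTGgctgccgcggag
Nle1, chr11:82908355-82908384, minus strand: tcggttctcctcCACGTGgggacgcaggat
Tsr1, chr11:74898092-74898121, plus strand: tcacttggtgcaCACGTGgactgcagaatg
Utp20, chr10:88826765-88826789, minus strand: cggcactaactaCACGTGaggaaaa
Mybbp1a, chr11:72441355-72441376, plus strand: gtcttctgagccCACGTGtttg
The matches lay at 215 and 48 bases before the start in Rrn3, 60 bases before it in Nop2, and 2 to 40 bases after it in the other six genes listed. A match describes these letters and not a bound site. The 250 bases upstream of 2 genes with a low P in obese against nonobese mice (below) follow for contrast. The Nop2 stretch holds 1 E-box, in capitals, and the Polr1b stretch holds none.
Nop2, chr6:125131633-125131882, plus strand: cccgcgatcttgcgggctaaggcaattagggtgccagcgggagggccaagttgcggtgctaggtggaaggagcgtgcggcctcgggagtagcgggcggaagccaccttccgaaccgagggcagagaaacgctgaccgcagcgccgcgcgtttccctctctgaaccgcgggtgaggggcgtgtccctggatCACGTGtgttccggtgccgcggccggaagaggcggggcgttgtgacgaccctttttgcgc
Polr1b, chr2:129100746-129100995, plus strand: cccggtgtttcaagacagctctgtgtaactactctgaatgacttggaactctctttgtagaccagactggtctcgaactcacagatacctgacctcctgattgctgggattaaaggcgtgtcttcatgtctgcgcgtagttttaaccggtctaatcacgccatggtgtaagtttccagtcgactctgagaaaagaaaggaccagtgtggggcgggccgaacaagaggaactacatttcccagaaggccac
The promoters of these 43 genes had a median GC content of 58.0%, against 61.0% for the tested genes. Their median CpG observed-to-expected ratio was 0.842, against 0.763.

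Counts on genes summed to between 14022929 and 33871843 per tumor, and the lowest count of any of the 50 genes in any tumor was 291. Levels are given as CPM after TMM scaling, which sets the count of each gene against the scaled total of its library, and fold changes as log2 values. Their standard error (SE) was derived as the absolute log2 fold change over the square root of the edgeR F statistic. P values measure the spread between tumors, and in bulk tissue fewer cells of a type and less RNA per cell cannot be told apart. The melanocyte markers Pmel, Mlana, Dct, Tyr and 6 others summed to between 35500 and 42300 CPM in every tumor. The T and NK cell markers summed to only 0.508 to 25.6 CPM. Of the 50 genes, 14 overlap a protein-coding gene on the opposite strand, Nop56, Wdr12 and Bop1 among them, and the sources used here do not state the strand setting of the counting. Annotated snoRNA genes lie within 7 of the 50 (Nop56, Nop58, Dkc1, Ncl, Gnl3, Wdr43 and Tsr1).

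Ribosome biogenesis genes were well expressed in these tumors. Their median level was 82.8 CPM, against 26.4 CPM for all tested genes, and their coefficient of variation over the 12 tumors ranged from 6.14% (Noc2l) to 20.2% (Rrp12), with a median of 11.1% against 15.0% for all tested genes. Per kilobase of annotated exon, the nucleolar chaperone nucleophosmin (Npm1) led at 349 CPM per kilobase, followed by nucleolin (Ncl) at 133, the H/ACA protein Nhp2 at 126 and the processing factor Rrp1 at 99.4. The Pol I subunit Polr1e was the lowest at 5.49, below Dcaf13 at 6.22 and the PeBoW subunit Wdr12 at 6.398. With the length of the principal transcript in place of all annotated exons, Npm1 remained first at 569 CPM per kilobase and Polr1e last at 7.16, but Rrp1 at 167 passed Ncl at 165.5 and Nhp2 at 138. The box C/D protein Nop58 went from rank 34 to rank 5 and Dcaf13 from rank 49 to rank 19, so the order of the other genes depends on the gene models.

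Averaged over the 50 genes, expression was lowest in the tumors of obese mice given isotype. The mean centered log2 CPM (each gene set to 0 over all tumors) was 0.0320, 0.0842 and 0.121 in the nonobese isotype tumors and 0.0828, 0.0238 and -0.0395 in the nonobese anti–PD-1 tumors. It was -0.147, -0.0997 and -0.0804 in the obese isotype tumors, and 0.0498, -0.0196 and -0.00772 in the obese anti–PD-1 tumors. All 3 obese isotype tumors thus lay below the other nine, and the nearest was nonobese anti–PD-1 tumor 3. Group means were 0.0790 ± 0.0447, 0.0224 ± 0.0612, -0.109 ± 0.0340 and 0.00750 ± 0.0371 (SD, n = 3 each) in the same order, given without a test. Gene by gene, the obese isotype group had the lowest mean for 36 of the 50 genes and the nonobese isotype group the highest for 25. Obese isotype tumor 1 was the most uniform, with 46 of 50 genes below their own mean. The 50 genes took between 0.665% of all counts, in that tumor, and 0.828%, in nonobese isotype tumor 3.

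**Figure D1:**
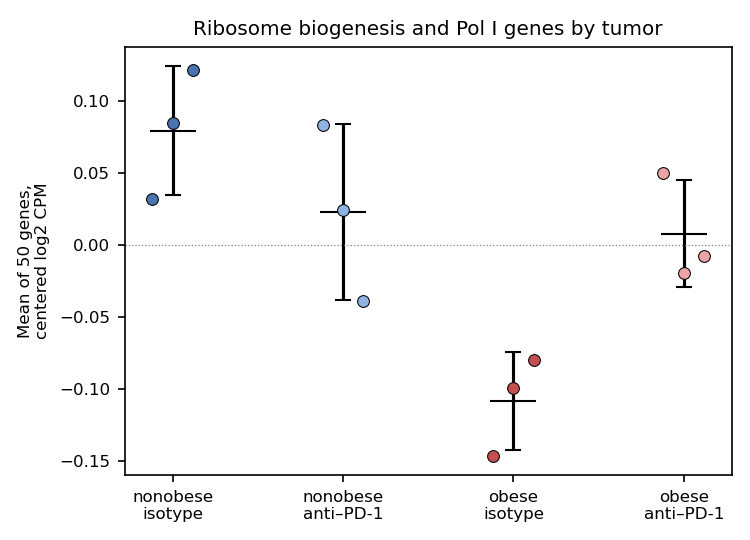
Mean centered log2 CPM of the 50 ribosome biogenesis and Pol I genes (y axis) in each of the 12 tumors by group (x axis); points are tumors, the horizontal line and bars are the group mean and SD. The 3 obese isotype tumors lie at -0.147 to -0.0804, below the 9 other tumors.

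**Figure D2:**
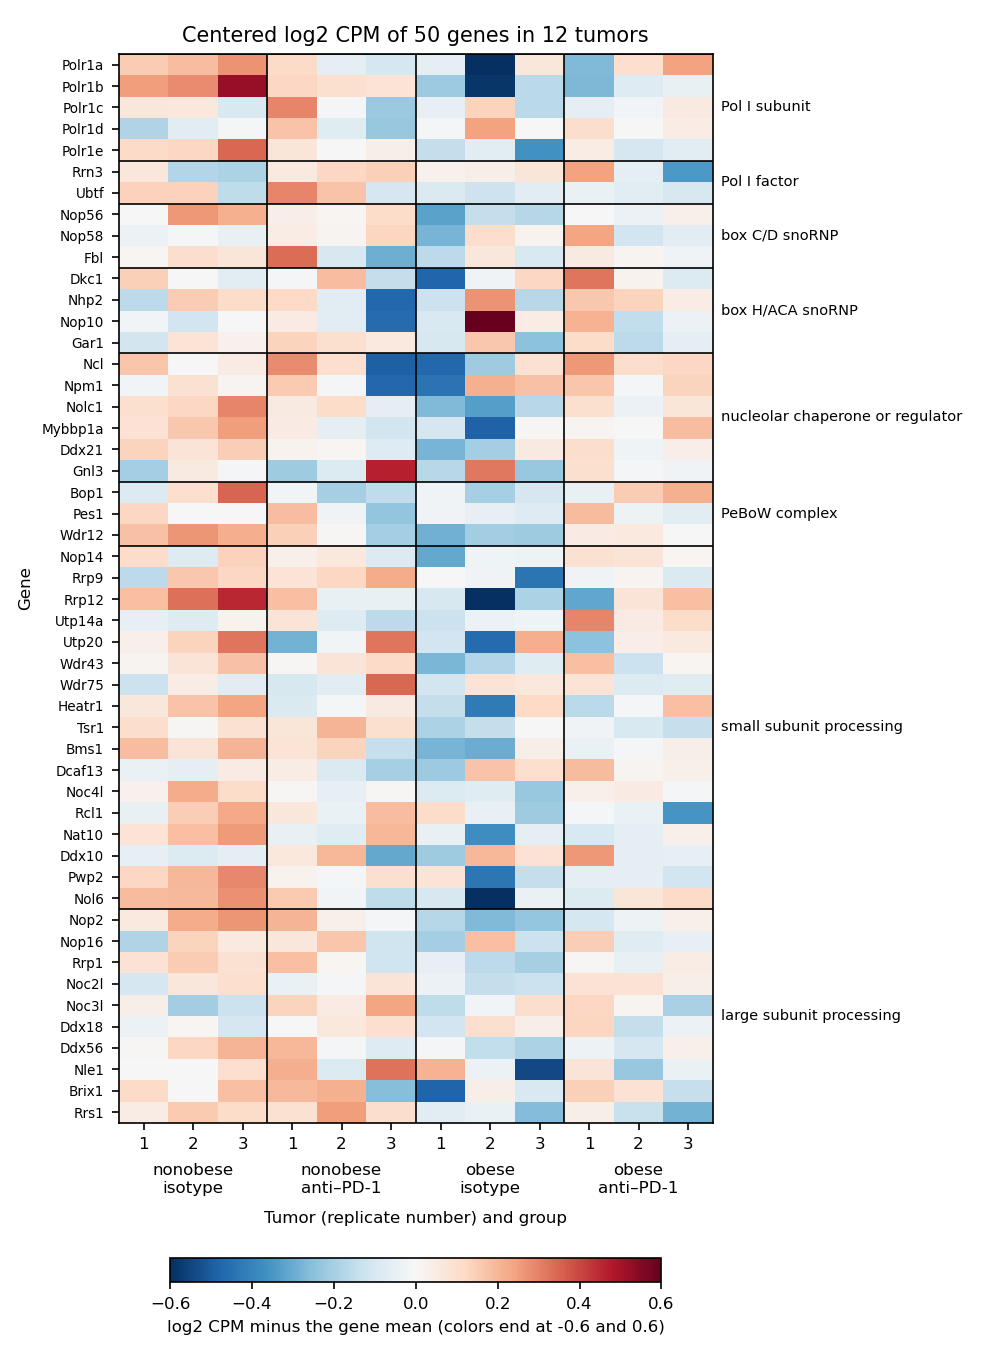
Heat map of log2 CPM minus the mean of each gene, with the 50 genes in rows by role and the 12 tumors in columns by group; red is above and blue below the gene mean, and colors end at 0.6 in either direction. Blue dominates the obese isotype columns, where 46, 34 and 31 of the 50 genes are below their mean. In the other tumors this number is 9 to 30, with 30 in obese anti–PD-1 tumor 2 and 28 in nonobese anti–PD-1 tumor 3. Nop10 and Gnl3 stand out in red in obese isotype tumor 2.

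The comparison of obese with nonobese mice under isotype control asks what obesity is associated with in the absence of PD-1 blockade. Of the 50 genes, 41 had a log2 fold change below 0, with a median of -0.18 (range -0.67 to 0.27), against a median of 0.01 for all genes. At an unadjusted P below 0.05 by edgeR, 19 genes (38%) were lower and 0 higher, where 6.17% of all tested genes were lower and 7.11% higher. The CPM values of the 2 groups did not overlap for 21 genes that were lower and for 0 that were higher, against 9.02% and 10.4% of all genes. No gene of the 50 passed an edgeR FDR of 0.05, as was true of all tested genes (0.0%), and none exceeded a 2-fold change at P below 0.05, against 1.37%. DESeq2, run on the same genes, placed 6 of the 50 below an FDR of 0.05 and 172 genes in all (1.31%). Without nonobese isotype tumor 3, the edgeR count was 12.

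**Figure D3:**
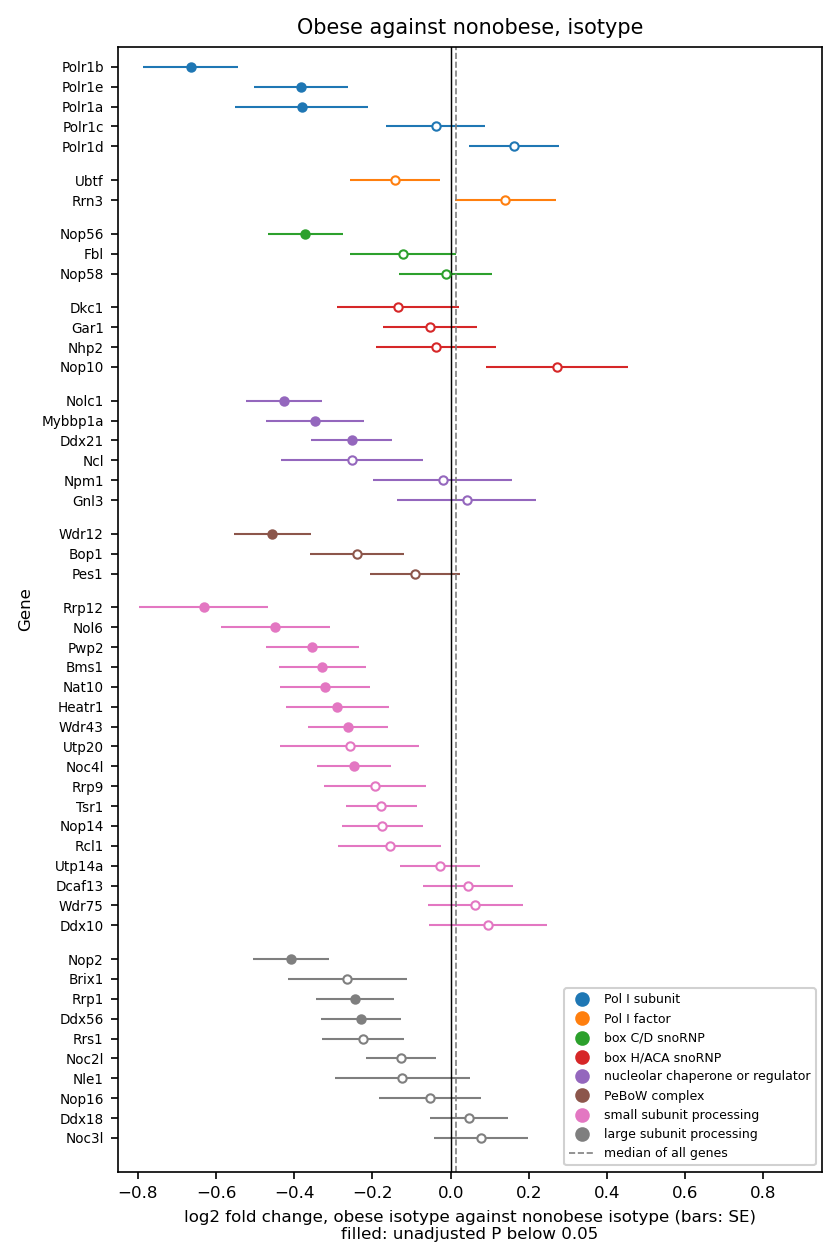
Log2 fold change of obese against nonobese isotype tumors (x axis) for each of the 50 genes (y axis), grouped by role; bars are the SE, filled points have an unadjusted P below 0.05, and the dashed line is the median of all 13095 genes. Points lie left of 0 for 41 genes, and the 19 filled ones reach from Ddx56 at -0.23 to Polr1b at -0.67.

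Among the Pol I subunits, both large catalytic subunits and the accessory subunit Polr1e were lower in obese isotype tumors. Polr1b, which encodes the second largest subunit and forms the active center with Polr1a (chr2:129100995-129126594, plus strand, GENCODE annotation of GRCm38), measured 118, 121 and 143 CPM in nonobese isotype tumors and 85.4, 66.5 and 89.0 CPM in obese isotype tumors. The groups did not overlap, and the log2 fold change of -0.67 (SE 0.12) was the largest and had the smallest P of the 50 genes (edgeR FDR = 0.107, DESeq2 FDR = 0.00040).
Polr1a, the largest subunit, measured 252, 258 and 273 CPM against 218, 144 and 238 CPM. Its groups did not overlap either, but obese isotype tumor 2 was far below the other two. The log2 fold change was -0.38 (SE 0.17, edgeR FDR = 0.364), and it was -0.20 without that tumor, with an edgeR P of 0.178. The P also exceeded 0.05 without any 1 of the 3 nonobese isotype tumors or without nonobese anti–PD-1 tumor 2, at 0.053 to 0.097. Polr1e was lower by a similar size at -0.38 (SE 0.12, edgeR FDR = 0.250).
Polr1c and Polr1d, the pair of small subunits that Pol I shares with RNA polymerase III, did not follow. Their log2 fold changes were -0.04 and 0.16.

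The factors that load Pol I onto the ribosomal DNA differed less. Ubtf, the upstream binding factor that holds ribosomal genes open, measured 241, 242 and 197 CPM in nonobese and 206, 201 and 209 CPM in obese isotype tumors, with overlapping groups (log2 fold change -0.14, SE 0.12, edgeR FDR = 0.603). Rrn3, which makes Pol I competent to initiate and is the gene with 2 E-boxes above, measured 113, 95.9 and 94.9 CPM against 110.2, 111 and 114 CPM. It was among the 3 genes with the smallest P in the higher direction, but its difference of 0.14 (SE 0.13, edgeR FDR = 0.651) was close to its error.

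Of the box C/D proteins, which build the methylating snoRNPs, only the scaffold Nop56 had an unadjusted P below 0.05. Nop56 measured 186, 223 and 216 CPM in nonobese and 149, 169 and 165 CPM in obese isotype tumors. Every obese tumor was below every nonobese tumor (log2 fold change -0.37, SE 0.10, edgeR FDR = 0.205, DESeq2 FDR = 0.011). Its partner Nop58 was at -0.01, and the methyltransferase fibrillarin (Fbl) measured 68.3, 73.0 and 71.3 CPM against 60.7, 71.1 and 63.6 CPM, with overlap and a log2 fold change of -0.12 (SE 0.14, edgeR FDR = 0.718).
None of the 4 H/ACA genes had a P below 0.05. Dkc1, the pseudouridine synthase dyskerin, measured 65.0, 59.1 and 56.5 CPM against 42.4, 58.1 and 64.2 CPM, so that the obese group held both the lowest and nearly the highest value. Nop10, the smallest H/ACA protein, had the highest fold change of all 50 genes at 0.27 (SE 0.18, edgeR FDR = 0.519). That value rested on obese isotype tumor 2, at 68.8 CPM against 41.6 and 45.6 CPM in the other two.

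Of 6 nucleolar chaperones and regulators, 3 were lower at P below 0.05 by edgeR, beside 6.17% of all tested genes. Nolc1, a phosphoprotein that shuttles snoRNPs between nucleolus and Cajal bodies, measured 256, 261 and 294 CPM in nonobese isotype tumors and 199.6, 191 and 214 CPM in obese isotype tumors. The groups did not overlap and the log2 fold change was -0.43 (SE 0.10, edgeR FDR = 0.141, DESeq2 FDR = 0.0013). Mybbp1a, a MYB-binding repressor found in the nucleolus, and the helicase Ddx21, which couples Pol I and Pol II transcription, were also lower without overlap, at -0.35 and -0.25.
Nucleolin was more scattered. Ncl measured 1503, 1340 and 1385 CPM in nonobese and 967, 1154 and 1427 CPM in obese isotype tumors, a log2 fold change of -0.25 (SE 0.18, edgeR FDR = 0.549) with overlapping groups. Npm1 measured 908, 979 and 930.3 CPM against 675, 1064 and 1038 CPM, so that only obese isotype tumor 1 was low (log2 fold change -0.02, SE 0.18, edgeR FDR = 0.969). The same tumor and nonobese anti–PD-1 tumor 3 (954 CPM of Ncl and 664 CPM of Npm1) held the lowest levels of both genes. Without these 2 tumors, the count of the 50 genes at P below 0.05 in this comparison was 17 lower and 1 higher.

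The PeBoW complex, formed by Pes1, Bop1 and Wdr12 and needed to mature the large subunit RNA, was uneven. Wdr12 measured 85.7, 91.2 and 88.3 CPM in nonobese and 62.2, 65.7 and 65.4 CPM in obese isotype tumors. The spread within each group was small beside that gap (log2 fold change -0.46, SE 0.10, edgeR FDR = 0.141, DESeq2 FDR = 0.0013). Bop1 measured 188, 213 and 253 CPM against 196, 173 and 185 CPM, with overlap, at -0.24 (SE 0.12, edgeR FDR = 0.401). Pes1 had a log2 fold change of only -0.09, although its 3 obese tumors, at 177 to 184 CPM, all lay below the nonobese tumors at 187 to 204 CPM.

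**Figure D4:**
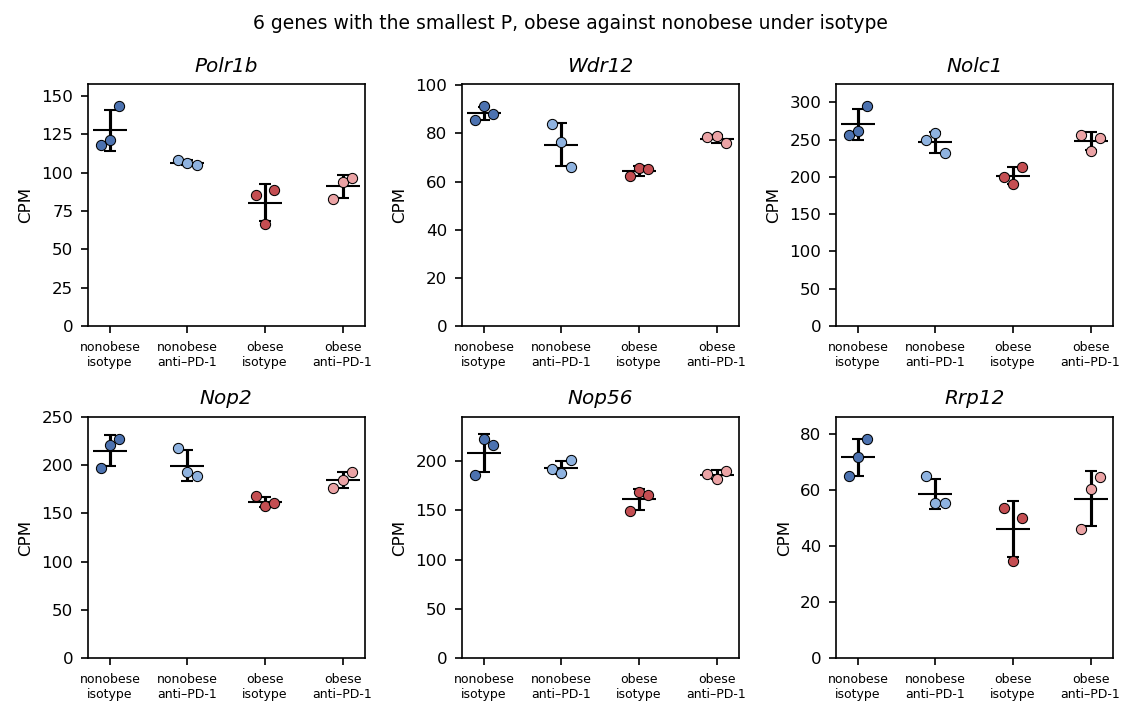
CPM (y axis, from 0) of Polr1b, Wdr12, Nolc1, Nop2, Nop56 and Rrp12 in the 12 tumors by group (x axis); points are tumors, and lines and bars are the group mean and SD. In each panel the 3 obese isotype tumors lie below the 3 nonobese isotype tumors, for example at 62.2 to 65.7 against 85.7 to 91.2 CPM for Wdr12.

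Small subunit processing factors made up 17 of the 50 genes, and 14 had a log2 fold change below 0, with a median of -0.25. By edgeR, 8 were lower at P below 0.05, beside 6.17% of all tested genes. The largest difference was in Rrp12, an exporter of pre-ribosomal particles, at 64.9, 71.8 and 78.3 CPM against 53.6, 34.7 and 50.1 CPM (log2 fold change -0.63, SE 0.17, edgeR FDR = 0.205, DESeq2 FDR = 0.032). The groups did not overlap, and obese isotype tumor 2 was again the lowest. Nol6 (-0.45), the U3 snoRNP-associated factors Pwp2 (-0.35) and Wdr43 (-0.26), the GTPase Bms1 (-0.33), the RNA acetyltransferase Nat10 (-0.32), Heatr1 (-0.29) and Noc4l (-0.25) were the other seven at P below 0.05. Heatr1 alone among these 8 had overlapping groups, since obese isotype tumor 3 at 92.8 CPM exceeded nonobese isotype tumor 1 at 89.3 CPM. Dcaf13, Wdr75 and Ddx10 were slightly higher, at 0.05 to 0.10.

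Among 10 large subunit factors, 8 were below 0 with a median of -0.18, and 3 were lower at P below 0.05 by edgeR, beside 6.17% of all tested genes. Nop2, a methyltransferase of the large subunit RNA long known as a proliferation antigen, measured 197, 221 and 227 CPM in nonobese isotype tumors and 168, 157 and 161 CPM in obese isotype tumors. The groups were apart (log2 fold change -0.41, SE 0.10, edgeR FDR = 0.155, DESeq2 FDR = 0.0035). Rrp1 (-0.25) and the helicase Ddx56 (-0.23) followed. Rrs1, which brings the 5S particle into the pre-ribosome, was lower without overlap at -0.22 but had a P of 0.053 by edgeR, and Noc3l (0.08) and Ddx18 (0.05) were on the other side of 0.

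Under anti–PD-1 the difference between obese and nonobese mice was small. The median log2 fold change of the 50 genes was -0.03, against -0.01 for all genes, and 28 genes were below 0. At P below 0.05 by edgeR, 2 genes were lower and 0 higher, beside 4.56% and 5.71% of all tested genes. Groups did not overlap for 5 lower genes (Polr1b, Pwp2, Rrp9, Rrs1 and Tsr1) and 0 higher ones, beside 7.06% and 6.54%. None passed an edgeR FDR of 0.05 (0.382% of all genes did) or a 2-fold change with P below 0.05 (4.25% did), and DESeq2 called 0 of the 50 at that FDR, beside 2.06% of all genes. The median was 0.011 without nonobese anti–PD-1 tumor 1, so its sign rests on that tumor.
Rrs1 measured 84.7, 94.5 and 85.4 CPM in nonobese and 81.4, 72.4 and 65.2 CPM in obese anti–PD-1 tumors (log2 fold change -0.28, SE 0.11, edgeR FDR = 0.369). Tsr1, a GTPase-like factor of late small subunit maturation, measured 84.1, 92.0 and 85.2 CPM against 78.6, 75.0 and 72.6 CPM (-0.21, SE 0.09, edgeR FDR = 0.446). Polr1b was the third, at -0.23 (SE 0.12, edgeR FDR = 0.568). On the higher side the smallest P values belonged to Utp14a (0.20), Bop1 (0.23) and Nhp2 (0.23), all with overlapping groups. The count of 2 became 0 without nonobese anti–PD-1 tumor 2 or without obese anti–PD-1 tumor 3, and 4 without nonobese or obese anti–PD-1 tumor 1. It was 1 without nonobese isotype tumor 1 or obese anti–PD-1 tumor 2.
Over the 10 fixed genes, Polr1a (0.05), Fbl (0.01), Nop56 (-0.05), Dkc1 (0.08), Ncl (0.16) and Npm1 (0.18) stayed near 0 or above it, and Ubtf (-0.20) and Rrn3 (-0.14) below it.

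In obese mice, few of the 50 genes differed between anti–PD-1 and isotype tumors at P below 0.05, and most fold changes were above 0. This comparison shares the obese isotype tumors with the first one, so low values in those 3 tumors enter both. The median log2 fold change was 0.11, against -0.01 for all genes, and 43 of the 50 genes were above 0. By edgeR, 3 genes were higher and 0 lower at P below 0.05, beside 4.3% and 3.27% of all tested genes, and 9 were higher by DESeq2, beside 4.97%. Groups did not overlap for 10 higher and 0 lower genes, beside 5.45% and 7.0%. No gene of the 50 passed an edgeR FDR of 0.05 (0.0% of all genes) or the 2-fold threshold (2.44%), and DESeq2 called 0 at that FDR, beside 0.802%.
Nolc1 measured 257, 234 and 253 CPM with anti–PD-1, above the 191 to 214 CPM of the obese isotype tumors (log2 fold change 0.30, SE 0.10, edgeR FDR = 0.436). Wdr12 measured 78.5, 79.0 and 75.9 CPM against 62.2 to 65.7 CPM (0.27, SE 0.10, edgeR FDR = 0.517). Nop56 measured 187, 182 and 190.3 CPM against 149 to 169 CPM (0.21, SE 0.10, edgeR FDR = 0.656). Its unadjusted P of 0.049 by edgeR was below 0.05 in only 11 of 20 alternatives, against 20 of 20 for Nolc1 and Wdr12.
In these 3 genes all obese anti–PD-1 tumors were above all obese isotype tumors. Ncl was also apart, at 1601, 1439 and 1458 CPM, with the highest fold change of the 50 genes at 0.34 (SE 0.18, edgeR FDR = 0.697). On the lower side were Nop10 (-0.21), Rcl1 (-0.08) and Rrn3 (-0.08), whose groups overlapped.
The Pol I genes were less uniform. Polr1a measured 188, 243 and 268 CPM with anti–PD-1 (0.22, SE 0.17) and Polr1b 82.6, 94.2 and 96.4 CPM (0.18, SE 0.12), and in both genes tumor 1 lay within the range of the isotype tumors. Ubtf measured 213, 209 and 205 CPM (0.02, SE 0.12), and Rrn3 128, 104 and 85.4 CPM (-0.08, SE 0.13).
Of the remaining fixed genes, Bop1 measured 193, 221 and 230.2 CPM (0.22, SE 0.12) and Fbl 70.3, 68.6 and 66.7 CPM (0.07, SE 0.14). Dkc1 measured 73.6, 59.9 and 55.8 CPM (0.20, SE 0.16) and Npm1 1030, 912.5 and 1009 CPM (0.09, SE 0.18). The anti–PD-1 tumors of these 4 genes overlapped the isotype tumors. Without obese isotype tumor 3 the count at P below 0.05 was 12, and it was 5 or 6 without obese isotype tumor 1, nonobese anti–PD-1 tumor 1 or 3, or obese anti–PD-1 tumor 1.

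In nonobese mice, the median response to anti–PD-1 was -0.06, against 0.02 for all genes, and 34 of the 50 genes were below 0. The nonobese isotype tumors are shared with the first comparison, so high values in those tumors enter both and the counts are not independent. Only Wdr12 had P below 0.05 on the lower side and 0 genes on the higher side, beside 3.59% and 1.64% of all tested genes. Groups did not overlap for 11 lower genes, among them Polr1a, Polr1b and Polr1e, and for 2 higher ones (Noc3l and Nop58), beside 5.37% and 5.81%. No gene of the 50 reached an edgeR FDR of 0.05 (0.0% of all genes) or the 2-fold threshold (2.42%), and DESeq2 called 0 at that FDR, beside 0.0687%.
Wdr12 measured 83.8, 76.3 and 66.0 CPM with anti–PD-1, below the 85.7 to 91.2 CPM with isotype (log2 fold change -0.23, SE 0.10, edgeR FDR = 0.912). Polr1b, at 108, 106 and 105 CPM, was below the 118 to 143 CPM of the isotype tumors (-0.26, SE 0.12, edgeR FDR = 0.929). Bop1 followed at -0.26 (SE 0.12) with overlapping groups. Noc3l, a factor of large subunit transport, was the first on the higher side at 35.2, 33.1 and 37.8 CPM against 32.8, 27.8 and 29.3 CPM (0.24, SE 0.12, edgeR FDR = 0.929).
These tumors did not overlap for Noc3l, whereas Rrn3 (0.20) and Wdr75 (0.13), next in order, did. The count of 1 at P below 0.05 was 4 without nonobese isotype tumor 1 or without obese isotype tumor 2, 3 without nonobese anti–PD-1 tumor 1, and 2 without obese isotype tumor 3. It was 0 without any 1 of the 4 remaining tumors of nonobese mice.
Of the other fixed genes, Polr1a measured 245, 218 and 210.4 CPM with anti–PD-1, all below the isotype tumors (-0.22, SE 0.17, edgeR FDR = 0.929). Ubtf measured 269, 247 and 204 CPM (0.08, SE 0.12) and Rrn3 113, 118 and 119.5 CPM (0.20, SE 0.13), both with overlap.
Of the snoRNP proteins, Nop56 measured 192, 188 and 201 CPM (-0.11, SE 0.10), Fbl 85.5, 63.3 and 55.3 CPM (-0.06, SE 0.14) and Dkc1 58.8, 67.1 and 53.5 CPM (-0.01, SE 0.15). Ncl measured 1629, 1434 and 954 CPM (-0.07, SE 0.18) and Npm1 1027, 913 and 664 CPM (-0.11, SE 0.18). In both genes tumor 3 was by far the lowest, while tumor 1 was above every nonobese isotype tumor. Nonobese anti–PD-1 tumor 3 also stood apart as a library, with a TMM factor of 1.087 against 0.951 to 1.02 in the other tumors.

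The difference between both responses to anti–PD-1, obese minus nonobese, was tested as an interaction. It shares the isotype tumors of both diets with the first comparison, so their values enter both and the counts are not independent. The median difference over the 50 genes was 0.21, against -0.04 for all genes, and 34 genes were above 0. At P below 0.05 by edgeR, 9 genes were above 0 and 0 below, beside 7.01% and 5.87% of all tested genes. None passed an FDR of 0.05 by edgeR (0.0% of all genes) or the 2-fold threshold (5.76%), whereas DESeq2 placed Wdr12 (FDR = 0.017) and Nolc1 (FDR = 0.036) below an FDR of 0.05, among 283 genes (2.16%).
Wdr12 had the smallest P, with a difference of 0.50 (SE 0.14, edgeR FDR = 0.166). Nolc1 (0.43, SE 0.14) and Bop1 (0.47, SE 0.17) followed, at edgeR FDRs of 0.216 and 0.268. Rrp12 had the largest difference at 0.59 (SE 0.23), and Nol6 (0.49), Mybbp1a (0.46), Polr1b (0.44), Nop56 (0.32) and Nop2 (0.30) completed the 9 genes.
Of the fixed genes outside these, Polr1a (0.44), Ncl (0.42), Npm1 (0.20), Dkc1 (0.21) and Fbl (0.13) had differences above 0 with P above 0.05, and Ubtf was at -0.06. On the other side Rrn3 (-0.28), Noc3l (-0.23) and Wdr75 (-0.16) had the smallest P values, the lowest of which was 0.148 by edgeR. Wdr12 and Noc4l were the only 2 of the 50 genes (4%) in which the response did not overlap in either diet and took opposite directions, against 1.43% of all genes. The count of 9 was 3 without nonobese isotype tumor 3 or obese anti–PD-1 tumor 3, and 5 without nonobese anti–PD-1 tumor 2.

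**Figure D5:**
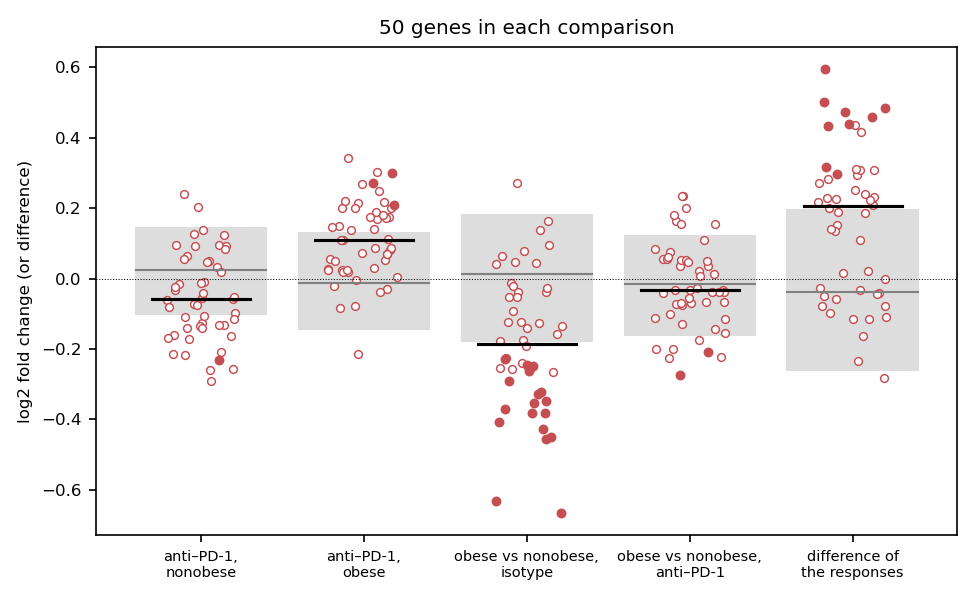
Log2 fold change, or difference of the responses in the last column (y axis), of the 50 genes in 5 comparisons (x axis); filled points have an unadjusted P below 0.05, black lines are medians of the 50 genes, and grey boxes and lines are the quartiles and median of all 13095 genes. The median of the 50 genes is -0.18 for obese against nonobese under isotype, 0.11 for anti–PD-1 in obese mice and 0.21 for the difference of the responses.

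Averaged over treatments, with 6 obese and 6 nonobese tumors, 12 genes were lower and 0 higher in obese mice at P below 0.05 by edgeR, beside 5.19% and 5.21% of all tested genes, and 43 of 50 were below 0 (median -0.11). This average joins a median of -0.18 under isotype and one of -0.03 under anti–PD-1. It reuses the isotype tumors of the first comparison, so its counts are not independent of that one. No gene of the 50 passed an edgeR FDR of 0.05 (0.183% of all genes did) or the 2-fold threshold (0.512% did), but DESeq2 placed Polr1b and Nop2 below that FDR, among 160 genes (1.22%). Polr1b came nearest by edgeR, at -0.45 (SE 0.09, FDR = 0.0632). Nop2 (-0.26, SE 0.07, edgeR FDR = 0.200) and Rrs1 (-0.25, SE 0.07, edgeR FDR = 0.248) followed, and Nop10 (0.21), Polr1d (0.12) and Dcaf13 (0.10) were first on the higher side. Of the other fixed genes, Nop56 was lower at -0.21 (SE 0.07, edgeR FDR = 0.290), while Ubtf (-0.17), Polr1a (-0.16), Fbl (-0.05), Ncl (-0.04), Dkc1 (-0.03), Bop1 (-0.0028), Rrn3 (-0.0012) and Npm1 (0.08) had P above 0.05. Averaged over diets, the effect of anti–PD-1 had a median of 0.02, with 0 genes lower and 0 higher at P below 0.05 by edgeR, beside 0.657% and 0.779% of all tested genes, and 0 past the FDR (0.0%) or the 2-fold threshold (0.305%). DESeq2 also called 0 at an FDR of 0.05 (0.0% of all genes). The smallest P values belonged to Noc3l (0.12), Utp14a (0.10) and Noc2l (0.08) above 0 and to Nop10 (-0.155), Rcl1 (-0.06) and Pwp2 (-0.05) below it. The 10 fixed genes lay between -0.04 (Polr1b) and 0.13 (Ncl). Without nonobese anti–PD-1 tumor 3 the count at P below 0.05 was 1. The median averaged over diets ranged from 0.0149 to 0.0491 when single tumors were left out. The responses averaged there had medians on opposite sides of 0, at -0.06 in nonobese and 0.11 in obese mice.

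Further genes of the pathway, from lists kept apart from the 50, were compared between obese and nonobese isotype tumors, where 6.17% of all tested genes were lower and 7.11% higher at P below 0.05. Among 10 other Pol I genes, 2 were lower and 1 higher at P below 0.05 by edgeR in obese isotype tumors, with a median of 0.12. Cd3eap, which despite its name encodes a Pol I subunit, measured 34.6, 35.1 and 36.9 CPM in nonobese and 26.0, 25.1 and 24.6 CPM in obese isotype tumors (log2 fold change -0.49, SE 0.12, edgeR FDR = 0.155). Taf1c, of the promoter selectivity factor, was lower at -0.50 (SE 0.15, edgeR FDR = 0.250), whereas Taf1b of the same factor was higher at 0.35 (SE 0.15, edgeR FDR = 0.357).
Of 39 other large subunit processing genes, 10 were lower and 0 higher, with Rrp1b (-0.49) and Pelp1 (-0.52) first, and their summed level was 2531 to 2585 CPM in obese isotype tumors against 2825 to 2939 CPM in nonobese isotype tumors. Of 35 other small subunit processome genes, 3 were lower and 0 higher (median -0.04), with Bysl (-0.32) and Tbl3 (-0.26) first, a count close to the share of all genes. The 13 genes of the RNA exosome held 1 lower gene, Exosc6 (-0.45), and the 9 snoRNP assembly genes and 13 Pol III subunit genes held 0 in either direction at P below 0.05 by edgeR. Of 9 snoRNA host genes, 1 was lower (Snhg8, -0.53).

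The transcript of MYC itself did not reach an edgeR FDR of 0.05 in any comparison. Myc measured 72.2, 59.2 and 56.0 CPM in nonobese isotype, 76.7, 78.8 and 68.5 CPM in nonobese anti–PD-1, 49.2, 58.9 and 50.2 CPM in obese isotype, and 68.5, 52.7 and 56.8 CPM in obese anti–PD-1 tumors. In obese against nonobese isotype tumors it differed by -0.25 on the log2 scale (SE 0.13, edgeR FDR = 0.433), with overlapping groups. Under anti–PD-1 the difference was -0.33 (SE 0.13, unadjusted P = 0.024 and FDR = 0.382 by edgeR), with no overlap, although the lowest nonobese tumor and the highest obese tumor had nearly the same level. Averaged over treatments it was -0.29 (SE 0.09, unadjusted P = 0.0079 and FDR = 0.290 by edgeR), and the anti–PD-1 effect averaged over diets was 0.21 (SE 0.09), with an unadjusted P of 0.038 and an FDR of 1.0 by edgeR.
Of 9 genes of the MYC network, 3 were higher and 1 lower at P below 0.05 by edgeR in obese isotype tumors. Mxd1, which pairs with MAX and represses E-box genes in opposition to MYC, measured 21.5, 16.8 and 15.9 CPM in nonobese and 28.2, 31.7 and 24.4 CPM in obese isotype tumors (0.63, SE 0.16, edgeR FDR = 0.182). Its relative Mxd4 was higher as well at 0.50 (SE 0.16, edgeR FDR = 0.251). Mnt, another MAX-binding repressor, was lower at -0.43 (SE 0.11, edgeR FDR = 0.182), at 91.2, 83.1 and 100.3 CPM in obese against 119 to 130.1 CPM in nonobese isotype tumors.
Neither Mxd1 nor Mnt overlapped between those groups, and they lay on opposite sides of 0. Among genes with a promoter in the table, CACGTG occurred in 5 of the 18 (27.8%) that were lower without overlap in obese isotype tumors and in 3 of the other 25 (12%), numbers too small to compare. Of the 10 proliferation genes, 1 was higher (Pcna, 0.35, SE 0.12, edgeR FDR = 0.283) and 0 were lower at P below 0.05 by edgeR in obese isotype tumors.

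Cell content varied between the same tumors, and its part in these results was not tested. In obese against nonobese isotype tumors, edgeR placed 4 of 9 macrophage markers, 4 of 9 adipocyte markers, 2 of 10 fibroblast, 2 of 10 endothelial and 1 of 9 T and NK cell markers lower at P below 0.05, and 0 of these 5 lists' markers higher. Summed macrophage markers were 186 to 316 CPM in obese and 229 to 501 CPM in nonobese isotype tumors, and fibroblast markers 252 to 1226 and 699 to 3042 CPM. Adipocyte markers summed to 23.1 to 29.9 CPM in obese and 25.9 to 54.9 CPM in nonobese isotype tumors, and Adrb3 was at 0 in all 3 obese and in at least 1 of the nonobese isotype tumors.
T and NK cell markers summed to 1.598 to 2.53 CPM against 2.15 to 5.03 CPM, with Cd3d at 0 in at least 1 obese isotype tumor and Cd3g at 0 in at least 1 tumor of each group. Endothelial markers summed to 376 to 598 CPM against 641 to 678 CPM. Skeletal muscle markers ranged from 13.2 to 153 CPM against 19.2 to 426 CPM, with 0 of 10 at P below 0.05. Melanoma markers summed to 38050 to 40690 CPM against 35710 to 38960 CPM, with 2 of 10 higher (Trpm1 and Tyr) and 1 lower (Sox10).
In obese mice given anti–PD-1, T and NK markers summed to 5.64 to 25.6 CPM and adipocyte markers to 45.5 to 104.7 CPM, both above every obese isotype tumor. Macrophage markers there summed to 261 to 513 CPM. At P below 0.05 by edgeR, 8 of 9 T and NK, 9 of 9 adipocyte, 4 of 9 macrophage and 1 of 10 skeletal muscle markers were higher than in obese isotype tumors, with 0 lower and 0 of the fibroblast, endothelial or melanoma markers in either direction. In nonobese mice, edgeR placed 9 of 9 macrophage, 8 of 10 fibroblast, 3 of 9 adipocyte, 1 of 10 endothelial and 1 of 9 T and NK cell markers lower with anti–PD-1 at P below 0.05, and 0 higher. Macrophage markers summed to 152 to 222 CPM, fibroblast markers to 339 to 642 CPM and endothelial markers to 547 to 566 CPM in these tumors, each below every nonobese isotype tumor, and adipocyte markers to 21.2 to 32.7 CPM. Between obese and nonobese anti–PD-1 tumors, 9 of 9 T and NK, 9 of 9 macrophage, 9 of 9 adipocyte, 3 of 10 fibroblast and 1 of 10 endothelial markers were higher in obese mice at P below 0.05 by edgeR, and 0 lower.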

How the data were processed

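RNA of 12 tumors was measured by the authors with stranded poly(A) libraries and single-end reads of 100 bases. Per the submitters' processing notes, FastQC 0.11.5, STAR 2.7.0f, HTSeq 0.9.1 and edgeR 3.28.1 were used with mm10, and the deposited table holds raw counts per gene, whole numbers without normalization. Every column was matched to a tumor by its name. The 50 genes and all other lists were chosen with earlier results of these data known, so no P value was adjusted over a list alone and no list was tested as a set.

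Counts were fitted in R 4.3.3 with edgeR 4.0.16 (filterByExpr, TMM, 4 group means over all 12 tumors, 8 residual degrees of freedom, glmQLFit with legacy=TRUE as in the study's edgeR version, quasi-likelihood F-test, Benjamini-Hochberg FDR over 13095 genes). Reads carried no molecular identifiers. Log2 CPM used a prior count of 2. The code was tested on simulated data. The rule for named genes took 10 fixed genes (Polr1a, Polr1b, Rrn3, Ubtf, Fbl, Nop56, Dkc1, Ncl, Npm1 and Bop1) and the 3 genes with the smallest P in each direction of a comparison, with the fold change alone where values by tumor are not printed; from other lists at most 2 per direction and Myc were named. Genes named with per-tumor values beyond this rule (Nop2, Rrp12, Noc4l and single values) were chosen after their values were seen. Alternatives were DESeq2 1.42.0, a replicate block, RLE size factors, 2 further count filters, glmQLFit without legacy mode, only the tumors compared, and leaving out tumors. Gene coordinates and exon lengths come from GENCODE on GRCm38, the assembly of mm10, and promoters from RefSeq.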

Additional observations from a re-analysis of the deposited data

Results flagged for a closer look

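Wdr12, a subunit of the PeBoW complex, and Noc4l, a small subunit processing factor, were each lower with anti–PD-1 in nonobese mice and higher with it in obese mice, with no overlap between isotype and anti–PD-1 tumors in either diet. Both were picked for these opposite responses, which 2 of the 50 genes (4%) and 1.43% of all tested genes showed. A difference above 0 between their responses follows from the pick, so the values below only describe its size. The difference between the responses was 0.50 (SE 0.14) on the log2 scale for Wdr12, with an edgeR FDR of 0.166 and a DESeq2 FDR of 0.017. For Noc4l it was 0.28, with an unadjusted P of 0.052 by edgeR. Noc4l measured 46.3, 53.1 and 49.1 CPM in nonobese isotype, 45.8, 44.0 and 45.8 CPM in nonobese anti–PD-1, 43.0, 43.3 and 38.9 CPM in obese isotype, and 46.5, 47.2 and 45.2 CPM in obese anti–PD-1 tumors. Neither gene passed an FDR of 0.05 by edgeR, and groups of 3 tumors were too small to be screened for single outlying tumors.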

How the results depend on the processing

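For the 50 genes in obese against nonobese isotype tumors, the count at P below 0.05 stayed between 12 and 22 and the median log2 fold change between -0.22 and -0.18 over 20 alternatives. Over 100 pairs of a named gene and a comparison, 0 of 1955 alternative values reversed a call, 40 lost and 53 gained a P below 0.05, and 78 changed sign where the reported value had not passed that threshold. Only pairs with a reported P below 0.05 could reverse or lose a call, and these were a minority of the 100. Most of the 1955 values could therefore not count as reversed or lost. Tsr1 in obese against nonobese anti–PD-1 tumors kept an edgeR or DESeq2 P below 0.05 in 10 of 20 alternatives. The other counts rest on few genes and depended on the setting. In nonobese mice the anti–PD-1 count of 1 was 3 with DESeq2, RLE scaling, at least 10 counts in every tumor or the current form of glmQLFit, 6 with only the tumors compared, and 0 with every gene of at least 1 count or without the 2 tumors lowest in Ncl and Npm1 (an alternative chosen after seeing the data). In obese mice the count of 3 was 9 with DESeq2, 7 with at least 10 counts in every tumor and 6 without those 2 tumors. The median of the difference between responses was 0.26 with at least 10 counts in every tumor and 0.16 without those 2 tumors. In obese against nonobese anti–PD-1 tumors the count of 2 was 1 with every gene of at least 1 count, with only the tumors compared, or with a replicate block. Leaving out single tumors gave counts of 0 to 4 (median -0.1129 to -0.03376) for anti–PD-1 in nonobese mice, 2 to 12 in obese mice, 12 to 20 for obese against nonobese under isotype, 0 to 4 (median -0.04564 to 0.0109) under anti–PD-1, 3 to 13 for the difference of responses, 10 to 18 for obese against nonobese averaged over treatments and 0 to 1 for anti–PD-1 averaged over diets. Where this left 2 tumors in a group, they were assumed to vary like the other groups. RLE scaling shifted the median of all genes by at most 0.0231.

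Mice with the same replicate number were separate animals. Over 18 pairs of the same number, the mean correlation of within-group deviations was 0.133 (-0.264 to 0.563), against -0.0623 (-0.555 to 0.447) over 36 pairs of different numbers. The highest correlation was thus in a pair of the same number, but only 5 of 12 tumors correlated best with their own number. The numbers were not taken as pairing, and a replicate block was run as an alternative. With a replicate block the isotype count was 18 and the count for the difference of responses was 8. With 3 tumors per group, the smallest two-sided P that exact permutation allows for 1 gene is 0.1.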
